A study of Mus musculus with 6 samples.

Results

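The AMPA receptor genes described here are the pore subunit genes Gria1, Gria2, Gria3 and Gria4, the cornichon genes Cnih2 and Cnih3, and Cacng2, Cacng3 and Cacng8, which encode transmembrane AMPA receptor regulatory proteins (TARPs). They were chosen by name, and each of the 9 symbols matched 1 of 23282 rows in every library. Hippocampi of C57BL/6 mice aged 16 weeks were profiled by QuantSeq, which sequences about 1 tag per messenger RNA, close to its 3′ end. The study set animals labelled PHF2 t/g against wild-type (WT) animals, with 3 libraries per group. The labels do not spell out t/g, and they give neither the construct nor the cells in which it acts. PHF2 is a histone demethylase, and the comparison asks how hippocampal mRNA differs with this genotype. Whether the libraries of a group come from different animals is not stated, and the p-values cover only the spread between libraries, which may be technical.

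AMPA receptors are tetramers of pore subunits that open when glutamate binds and carry most of the fast excitatory current at hippocampal synapses. GluA2, the product of Gria2, makes the channel nearly impermeable to calcium after its messenger RNA is edited, and GluA1, the product of Gria1, is phosphorylated by kinases that act in long-term potentiation. TARPs and cornichons bind the pore subunits, help them leave the endoplasmic reticulum, slow the closing of the channel and, for TARPs, anchor it to postsynaptic scaffolds. Counts per gene, as used here, show neither editing nor the flip and flop splice forms.

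Where the tags of these genes can be counted depends on the annotated 3′ end, so the last 30 bases of annotated transcripts are shown for Gria1, Gria2 and Cacng2, described most closely below, and for Cnih3 and Cacng8, in which no signal was found. Whether the ends bear on the counts was not tested. The 2 most common poly(A) signals, AATAAA and ATTAAA, were searched on the transcript strand, and a match is in capitals. In the last line the capitals mark the stop codon. Sequences and positions are from GENCODE M21 on GRCm38, 5′ to 3′.
Gria1, chr11:57330215-57330244, plus strand: cacaagaATTAAAtcactgtggacccatta
Gria2, shorter transcript, chr3:80687795-80687824, minus strand: gacatttgaAATAAAcattttttctattgt
Gria2, longest transcript, chr3:80681450-80681479, minus strand: gattataagtcacccagcccctaaccagaa
Cacng2, chr15:77991748-77991777, minus strand: atgaAATAAAgatttttttttatagcttgg
Cnih3, chr1:181460612-181460641, plus strand: aaacaaaatagagagaaaaaaaaaacttgc
Cacng8, longest transcript, chr7:3415619-3415648, plus strand: cgcgggggagccggggggcgtgtccggggc
Cacng8, other transcript, chr7:3415576-3415605, plus strand: acgctcaacaggaaaaccacgcccgtgTAG
At least 1 basic protein-coding transcript of 7 of the 9 genes held a signal in this window, as did 69.9% of 21807 genes with such a transcript. Cnih3 and Cacng8 were the 2 without a match. The transcripts of Cacng8 ended 43 bases and 0 bases after the stop codon, against 3401 bases for Cacng2 and 2598 for Gria1. RefSeq carries the end of Cacng8 618 bases further than GENCODE does. The sources used here do not give the annotation behind the deposited counts.

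Total counts per library ran between 6053363 and 8612720 in PHF2 t/g and between 5512171 and 8844718 in WT. By edgeR's quasi-likelihood test 291 of 12831 tested genes had an adjusted p under 0.05, of which 100 were higher in PHF2 t/g and 191 were lower (207 and 70 when libraries were scaled by library size alone). Phf2 itself was at 35.5, 37.3 and 43.1 CPM (tags relative to the TMM-scaled total of a library) in PHF2 t/g and at 38.3, 35.6 and 39.3 CPM in WT, a log2 fold change of 0.033 (SE 0.11; edgeR adjusted p = 0.929). These counts do not show whether a transgene without the endogenous 3′ end was present. WT replicate 2 stood apart, with a chi-square of 8.98 to 16.9 per gene against the other 5 libraries, where no pair among those 5 exceeded 8.53. This chi-square is of raw counts and grows with depth, and WT replicate 2 was the deepest library, with 8844718 counts. PHF2 t/g replicate 1, nearly as deep with 8612720 counts, had 2.82 to 8.53 against the libraries other than WT replicate 2. Sampling noise alone did not account for the differences between any pair, the closest having 2.82 per gene. Summed hypothalamus markers were at 91.7 to 101 CPM in PHF2 t/g, against 50.8 to 55.1 CPM in WT (4 of 6 tested rose, Avp and Oxt among them), and striatum markers at 840.0 to 959 CPM in PHF2 t/g, against 646 to 738 CPM in WT (3 of 9 rose). Endothelial and mural markers were at 134 to 139 CPM in PHF2 t/g, against 100.1 to 124 CPM in WT (3 of 9 rose), and choroid plexus markers at 159 to 561 CPM in PHF2 t/g, against 139.9 to 156 CPM in WT (0 of 4 passed). CA1 markers were at 576 to 647 CPM in PHF2 t/g, against 663 to 685 CPM in WT (Wfs1 of 7 rose), and interneuron markers at 1329 to 1354 CPM in PHF2 t/g, against 1383 to 1432 CPM in WT (Gad2 rose and Sst fell, of 11). The summed groups did not overlap for these 6 lists. They overlapped for the CA3, dentate granule, astrocyte, oligodendrocyte precursor and microglia lists, without a member past the test, for the myelin list (Mag and Opalin fell, of 8) and for the neocortex and subiculum list (Fn1 rose, of 8). Each listed marker had at least 1 count in some library. Sums weigh abundant genes most, so they need not reflect a whole list. Mpped1 (418 CPM in PHF2 t/g, 478 CPM in WT) was most of the CA1 sum, and 3 of 7 CA1 markers had log2 fold changes above 0. So had 6 of 11 interneuron markers, although their sum was lower, and 8 of 9 striatum markers. Adora2a was the striatum marker that was lower (log2 fold change −0.33; edgeR adjusted p = 0.169). Of the endothelial and mural markers 5 of 9 were above 0, and Cldn5 was lower (log2 fold change −0.59; edgeR adjusted p = 0.0791). The choroid plexus sum was 561 CPM in PHF2 t/g replicate 1, but 162 and 159 CPM in replicates 2 and 3, just above the WT libraries. Ttr was at 292, 3.69 and 1.29 CPM in these 3 libraries, against 2.27 to 4.46 CPM in WT. Most of the sum in PHF2 t/g replicates 2 and 3 was Enpp2, at 149 and 145 CPM. The markers were chosen after their values were seen, so these counts and separations are descriptions and not independent tests of tissue makeup. The part of the marker differences in the results below was not tested. In bulk tissue, fewer cells of a type and less RNA per cell cannot be told apart.

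None of the 8 AMPA receptor genes that passed the low-count filter had an adjusted p under 0.05, where 2.27% of all tested genes did. Gria2, which had the smallest p of the 8, averaged 520.2 ± 28.3 CPM in PHF2 t/g, against 449.6 ± 2.03 CPM in WT, 1.16 times the WT level (SD, n = 3 each; edgeR adjusted p = 0.164). Cacng2, which encodes stargazin, was at 219.9 ± 14.5 CPM in PHF2 t/g, against 263 ± 57.1 CPM in WT, and its call depended on a single WT library, without which the difference was larger. The other pore and auxiliary subunit genes had fitted fold changes of at most 1.18. Cacng8, the TARP gene known for its high expression in hippocampus, had 2 counts in all in PHF2 t/g, against 1 in WT, so it was not measured here. The 8 tested genes had a median log2 fold change of 0.044, where all tested genes had 0.020, and a median absolute log2 fold change of 0.13, where all tested genes had 0.15. By sign 5 were higher and 3 lower, and 53.9% of all tested genes were higher.

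In level, Gria1, Gria2 and Gria3 were among the abundant transcripts of the tissue, and Gria4 was not. Tags do not scale with transcript length, so CPM values of different genes roughly compare numbers of transcripts, except where tags fall outside the annotation. In both groups Gria1 was the highest, Gria2 and Gria3 came next, then Cacng2, Cnih2 and Cacng3, and Gria4 and Cnih3 were the lowest of the 8. Gria1 ranked 105th, Gria3 247th, Gria2 250th and Cacng2 662nd by mean level among the 12831 tested genes, and Gria4 ranked 4997th. Within each group the libraries of Gria2 and Gria3 overlapped, as did those of Gria4 and Cnih3. All other neighbours in this order were separated in every library.

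**Figure D1:**
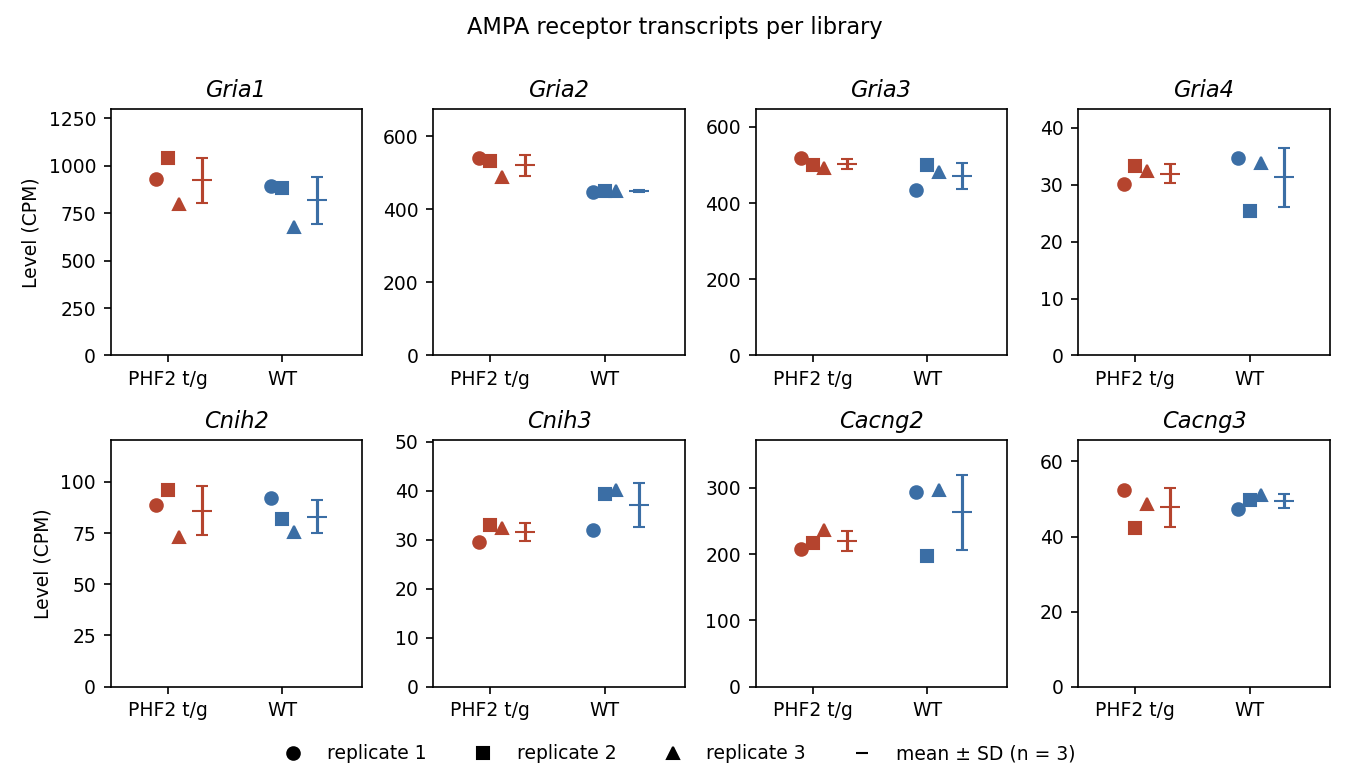
Level of each tested AMPA receptor gene in each library, in CPM scaled by TMM, with PHF2 t/g (red) left of WT (blue), symbols for the replicate number, and mean ± SD (n = 3) beside the points. The groups are separate for Gria2 only, and WT replicate 2 lies near the PHF2 t/g libraries for Cacng2, at 197 CPM.

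Gria1 (chromosome 11, 57011387 to 57330244) had 931, 1039 and 800.3 CPM in PHF2 t/g replicates 1, 2 and 3, against 893, 882 and 676 CPM in the WT replicates. The lowest library of each group carried the number 3, and the groups overlapped. The mean was 923 ± 119 CPM in PHF2 t/g, against 817 ± 122 CPM in WT (SD, n = 3 each), a log2 fold change of 0.18 with a 95% interval of −0.094 to 0.45 (SE 0.12; edgeR adjusted p = 0.56). The spread within either group was as large as the difference between the groups.

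Gria2 (chromosome 3, 80681450 to 80802835, minus strand) had 539, 534 and 488 CPM in PHF2 t/g, against 447, 451 and 450.3 CPM in WT. Each PHF2 t/g library lay above each WT library, as for 10.1% of all tested genes, and the WT libraries lay within 4 CPM of each other. The log2 fold change was 0.21 with a 95% interval of 0.054 to 0.37 (SE 0.075; unadjusted p = 0.0112; edgeR adjusted p = 0.164). An unadjusted p under 0.05 was reached by 14.7% of all tested genes. With library size alone as the scaling the call changed, to a log2 fold change of 0.31 (edgeR adjusted p = 0.0358; 0.0358 to 0.508 over all alternatives), while the median of all tested genes also moved, to 0.12. Relative to that median Gria2 was higher by 0.19 under TMM, DESeq2's size factors and library size alone. Another scaling moves all genes by nearly the same amount, so this distance was bound to stay alike and adds no evidence.

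Gria3 (chromosome X, 41400854 to 41678601), which encodes GluA3, a partner of GluA2 in many receptors, had 517, 499 and 492 CPM in PHF2 t/g, against 434, 499 and 480.4 CPM in WT. Only WT replicate 1 lay clearly apart, and the groups overlapped. The log2 fold change was 0.093 with a 95% interval of −0.070 to 0.25 (SE 0.077; edgeR adjusted p = 0.633), and it was 0.027 without WT replicate 1. Gria4 (chromosome 9, 4417896 to 4796234, minus strand) encodes GluA4, which in the adult hippocampus is known mainly from interneurons. It had 30.1, 33.4 and 32.3 CPM in PHF2 t/g, against 34.6, 25.4 and 33.9 CPM in WT. WT replicate 2 was the lowest of the 6 libraries, and the PHF2 t/g libraries lay inside the range of the WT libraries. Its log2 fold change of 0.036 (SE 0.13; edgeR adjusted p = 0.933) turned to −0.10 without WT replicate 2.

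Because these genes share each library, their proportions do not depend on how libraries are scaled. Gria1 made up 46.1%, 49.4% and 44.2% of the Gria1 to Gria4 tags in PHF2 t/g and 49.4%, 47.5% and 41.2% in WT. Gria2 made up 26.7%, 25.3% and 26.9% in PHF2 t/g and 24.7%, 24.3% and 27.5% in WT. The groups overlapped for both, and for Gria2 the highest share of all was in WT replicate 3. The mean Gria2 share was 26.3% ± 0.856 in PHF2 t/g and 25.5% ± 1.72 in WT (SD, n = 3 each), a difference of 0.842 percentage points (exact two-sided permutation p = 0.5; the smallest p possible with these 6 libraries is 0.1). The separation of the groups seen in Gria2 CPM was not seen in its share of pore subunit tags. That share also moves with Gria1, the largest part. In WT replicate 3 Gria1 was at its lowest, 676 CPM, while Gria2 was at 450.3 CPM, close to the other WT libraries. The share alone therefore cannot decide whether the Gria2 level differed. There were 0.579, 0.514 and 0.609 Gria2 tags per Gria1 tag in PHF2 t/g and 0.501, 0.511 and 0.667 in WT. Gria3 made up 25.5% ± 1.72 in PHF2 t/g and 26.7% ± 2.65 in WT, and Gria4 1.62% ± 0.15 in PHF2 t/g and 1.78% ± 0.369 in WT, with the groups overlapping for each.

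**Figure D2:**
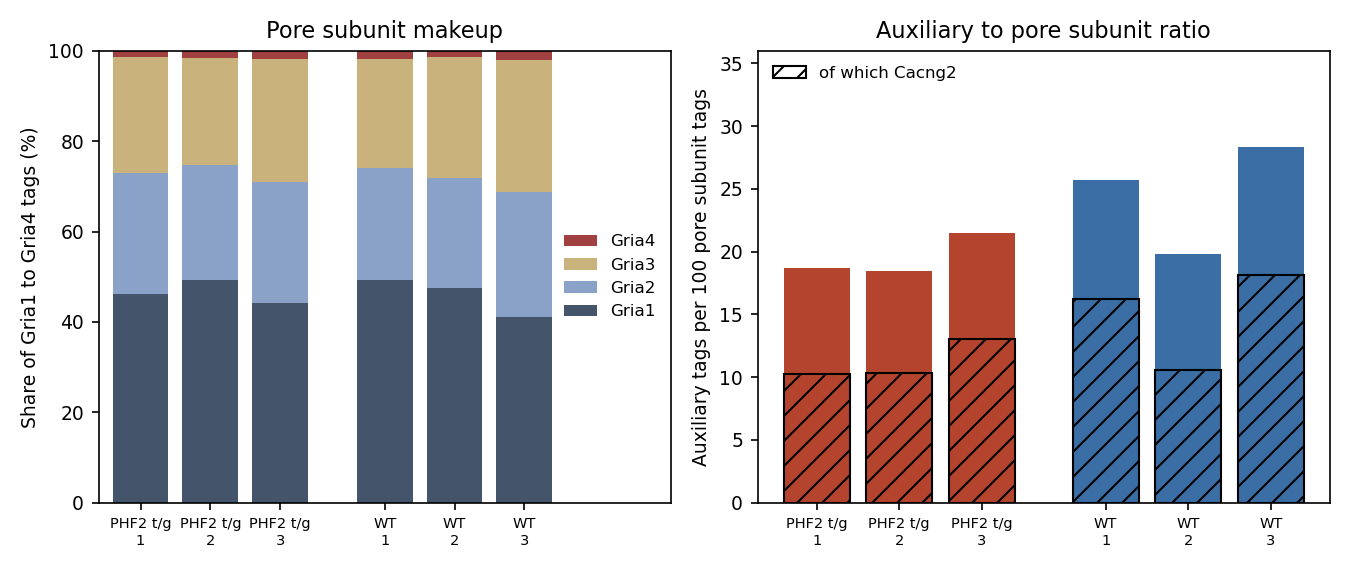
Left, share (%) of each pore subunit gene in the summed Gria1 to Gria4 tags of each library. Right, tags of Cnih2, Cnih3, Cacng2, Cacng3 and Cacng8 per 100 pore subunit tags, with the Cacng2 part hatched, PHF2 t/g (red) left of WT (blue). The makeup is alike across the 6 libraries, and WT replicates 1 and 3 hold the most auxiliary tags, at 25.7 and 28.3 per 100.

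Among the auxiliary subunits, Cacng2 (chromosome 15, 77991748 to 78120028, minus strand) encodes the TARP that is disrupted in the stargazer mouse. It had 207, 217 and 236 CPM in PHF2 t/g, against 294, 197 and 297 CPM in WT. WT replicates 1 and 3 were the 2 highest libraries and WT replicate 2 was the lowest of all. The log2 fold change was −0.25 with a 95% interval of −0.62 to 0.11 (SE 0.16; edgeR adjusted p = 0.52). Without WT replicate 2 it was −0.43 (edgeR adjusted p = 8.04e-04), and with PHF2 t/g replicate 1, the library high in choroid plexus markers, left out as well it was −0.39 (edgeR adjusted p = 0.0224). With any other library left out the log2 fold change stayed between −0.31 and −0.16 and the edgeR adjusted p at 0.585 or above, and over all alternatives the adjusted p ran between 8.04e-04 and 0.787. Cacng2 in WT replicate 2 was 0.59 lower on the log2 scale than the mean of the other 2 WT libraries, and 4.34% of 4982 genes whose mean log2 CPM was 5 or more were as low or lower in that comparison.

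Cacng3 (chromosome 7, 122670492 to 122769393) encodes a TARP closely related to stargazin. It had 52.5, 42.2 and 48.8 CPM in PHF2 t/g, against 47.4, 49.8 and 51.0 CPM in WT. The WT libraries lay inside the range of the PHF2 t/g libraries. Its log2 fold change was −0.046 with a 95% interval of −0.27 to 0.18 (SE 0.11; edgeR adjusted p = 0.891), and with library size alone it was 0.055. Cacng8 (chromosome 7, 3390683 to 3415648) had 0, 1 and 1 counts in PHF2 t/g and 0, 0 and 1 counts in WT. A count of 0 allows up to 3 counts, which is 0.333 CPM in PHF2 t/g replicate 1, so neither a level nor a fold can be given. The annotated ends of this gene, shown above, stop at or just after the stop codon. The neighbouring TARP gene Cacng7 had 5 counts in all in PHF2 t/g, against 11 in WT.

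The cornichons were read at lower levels than the main pore subunits. Cnih2 (chromosome 19, 5092868 to 5098521, minus strand) encodes the cornichon best known from hippocampal pyramidal neurons. It had 88.7, 96.3 and 72.9 CPM in PHF2 t/g, against 91.9, 81.8 and 75.7 CPM in WT. As for Gria1, the lowest library of each group was replicate 3, and the groups overlapped. Its log2 fold change was 0.052 with a 95% interval of −0.18 to 0.28 (SE 0.11; edgeR adjusted p = 0.875), and it was below 0 without PHF2 t/g replicate 2 or WT replicate 3. The opposite-strand gene Yif1a reaches into the last 1000 bases of Cnih2, so without a stated strand setting its tags cannot be told from those of Cnih2.

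Cnih3 (chromosome 1, 181352628 to 181460641) had 29.5, 32.9 and 32.3 CPM in PHF2 t/g, against 32.0, 39.2 and 40.2 CPM in WT. WT replicates 2 and 3 were the 2 highest libraries, and WT replicate 1 lay among the PHF2 t/g libraries. The log2 fold change was −0.24 with a 95% interval of −0.49 to 0.0096 (SE 0.12; unadjusted p = 0.0584; edgeR adjusted p = 0.362). The smallest edgeR adjusted p over the alternatives was 0.164, without WT replicate 1. At 168 to 334 counts per library, counting error alone gave Cnih3 a relative error of up to 7.72%, against 1.5% for Gria1.

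**Figure D3:**
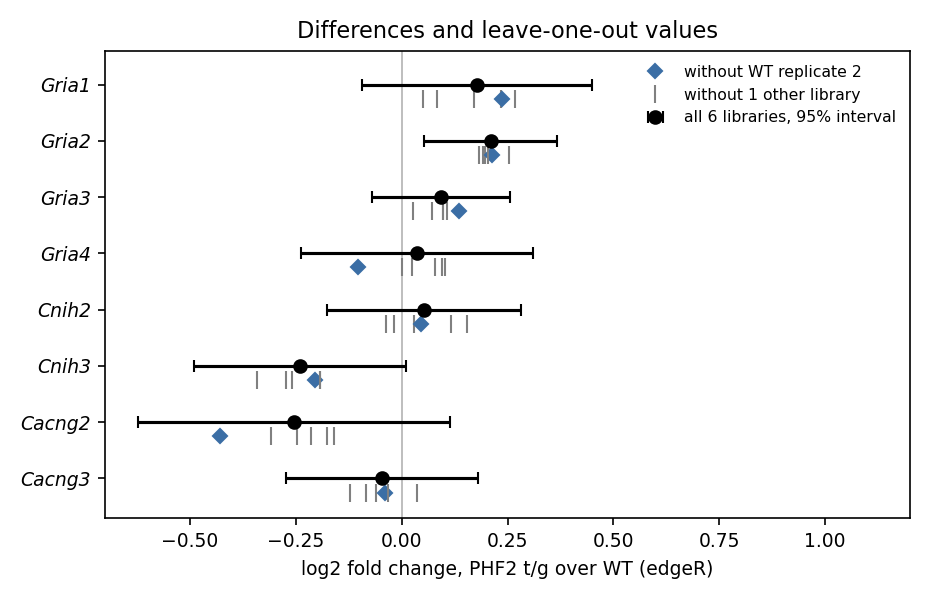
Log2 fold change of PHF2 t/g over WT for the 8 tested genes, with the 95% interval from all 6 libraries (black) and the value with 1 library left out (ticks below, with WT replicate 2 as a blue diamond). Leaving out WT replicate 2 moves Cacng2 to −0.43 and Gria4 to the other side of 0, and the interval of Gria2 lies above 0.

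The tags of the auxiliary genes were also set against those of the pore subunits within each library. Per 100 pore subunit tags there were 18.7, 18.5 and 21.5 auxiliary tags in PHF2 t/g and 25.7, 19.8 and 28.3 in WT. PHF2 t/g replicate 3 exceeded WT replicate 2, so the groups overlapped. The mean was 19.6 ± 1.69 in PHF2 t/g and 24.6 ± 4.37 in WT (SD, n = 3 each), a difference of −5.05 (exact two-sided permutation p = 0.2). Cacng2 accounted for 10.3, 10.3 and 13.0 of these tags in PHF2 t/g and for 16.3, 10.6 and 18.1 in WT. Without Cnih2 the difference was −4.68 (exact p = 0.2). With 1 library left out it ran between −7.45 without WT replicate 2, where the groups no longer overlapped (exact p = 0.2, the smallest that 3 against 2 libraries allow), and −3.20 without WT replicate 3 (exact p = 0.4). Of 17 such sums and ratios computed, 1 separated the groups. The members' summed share of all counts was 0.251%, 0.256% and 0.226% in PHF2 t/g and 0.217%, 0.214% and 0.205% in WT (exact two-sided permutation p = 0.1, the smallest that 3 against 3 libraries allow; 0.425 after Benjamini-Hochberg adjustment over the 17). That share is of raw totals, of which the ribosomal RNA row Rn45s took 7.05% to 7.61% in PHF2 t/g, against 8.2% to 9.89% in WT. The part of Rn45s in the separation was not tested. On the TMM scale the summed level was 2202 to 2493 CPM in PHF2 t/g, against 2105 to 2274 CPM in WT, and the groups overlapped.

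None of 56 tested genes that act with AMPA receptors, in 5 lists, passed the test. Among other auxiliary and complex proteins (12 of 16 tested, median log2 fold change 0.064) Shisa8 and Shisa9, of the CKAMP family of AMPA receptor partners, had the smallest p. Shisa8 was at 3.86 ± 1.06 CPM in PHF2 t/g, against 2.22 ± 0.616 CPM in WT (edgeR adjusted p = 0.275), and Shisa9 at 11.8 CPM in PHF2 t/g, against 8.84 CPM in WT (edgeR adjusted p = 0.279). Cacng4, Cacng7, Prrt1 and Olfm2 were below the low-count filter. Among genes for receptor biogenesis (7 of 7 tested, median 0.010) Abhd12 and Cpt1c, a carnitine palmitoyltransferase relative found in AMPA receptor assembly complexes, had log2 fold changes of 0.12 each (edgeR adjusted p = 0.58 and 0.612).

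Among scaffold and trafficking genes (19 of 21 tested, median −0.0061) Dlg4, which encodes the scaffold PSD-95 that holds TARPs at the synapse, was at 1274 ± 79.7 CPM in PHF2 t/g, against 1516 ± 153 CPM in WT. Its groups did not overlap, as for 10.4% of tested genes in that direction, and it did not pass (log2 fold change −0.25; edgeR adjusted p = 0.141). Akap5 was next (log2 fold change −0.22; edgeR adjusted p = 0.276), with 27393 CPM in PHF2 t/g against 31826 CPM in WT, but the 6 libraries held 1.11 to 1.13 counts of Lrrc17, a gene on another chromosome, per count of Akap5, so this row is uncertain. Among kinases and phosphatases (12 of 12 tested, median −0.040) Camk2a, the kinase that phosphorylates GluA1 and stargazin, was at 2669 ± 201 CPM in PHF2 t/g, against 3214 ± 203 CPM in WT (log2 fold change −0.27; edgeR adjusted p = 0.0978). Its groups did not overlap, and it passes a threshold of 0.10 but not that of 0.05. The calcineurin subunit gene Ppp3r1 had a log2 fold change of −0.18 (edgeR adjusted p = 0.32). The summed level of these 12 genes was 12082 to 13147 CPM in PHF2 t/g, against 13206 to 14138 CPM in WT, without overlap, and 4 of the 12 had a log2 fold change above 0. Ppp3r1 (3109 CPM in PHF2 t/g, 3527 CPM in WT) and Camk2a were the most abundant of the 12 and weigh most in this sum. The summed levels of the other pathway lists overlapped between the groups. For the scaffold and trafficking list the sum was 29694 to 35207 CPM in PHF2 t/g, against 34221 to 39174 CPM in WT. Most of it was the uncertain Akap5 row, so this overlap says little about the other genes of that list. Among editing and splicing genes (6 of 6 tested, median −0.020) Adarb1, which encodes the enzyme that edits Gria2 transcripts, was at 34.9 ± 1.9 CPM in PHF2 t/g, against 30.3 ± 3.08 CPM in WT (log2 fold change 0.21; edgeR adjusted p = 0.435). Khdrbs3, which encodes an RNA-binding splicing regulator, had −0.10 (edgeR adjusted p = 0.695).

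**Figure D4:**
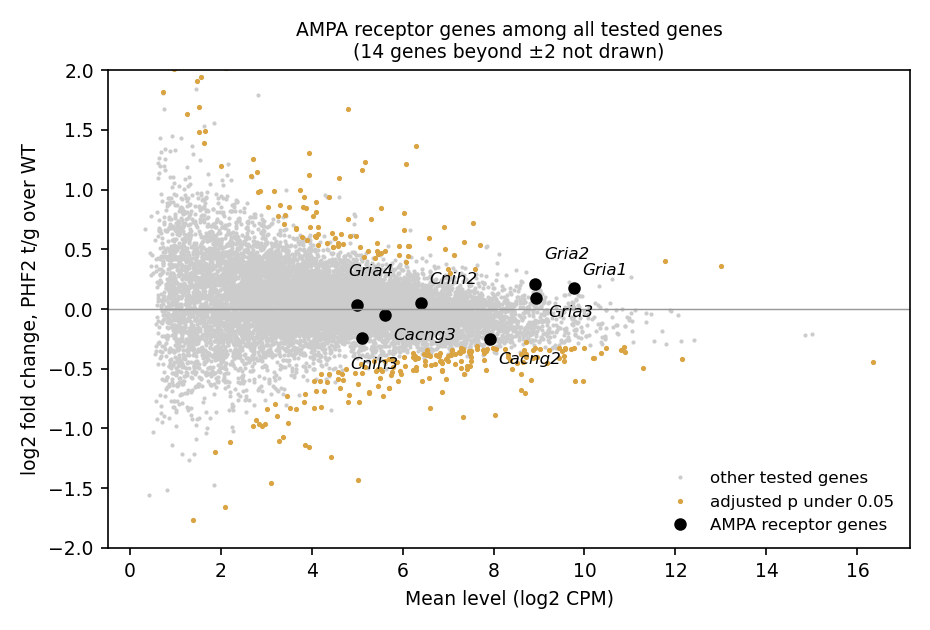
Mean level (log2 CPM) against log2 fold change of PHF2 t/g over WT for all tested genes (grey), those with an adjusted p under 0.05 (yellow) and the 8 AMPA receptor genes (black), with 14 genes beyond ±2 not drawn. The AMPA receptor genes lie between −0.25 and 0.21, inside the band of genes that did not pass at their level.

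Profiles over the 6 libraries were compared as log2 CPM centred on the mean of each gene, among 4981 other genes whose mean log2 CPM was 5 or more. The nearest to Gria2 were Degs1, Tardbp and Tub, at a root mean square distance of 0.019 to 0.022 on the log2 scale, where the median gene lay at 0.17. The nearest to Gria1 were Letmd1, Bhlhe22 and Sidt1, at 0.074 to 0.079, where the median gene lay at 0.23. None of these 6 genes passed the test between the groups. They were chosen for likeness to Gria1 or Gria2, which did not pass, so this adds no evidence.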

How the data were processed

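Each library has 1 deposited file of raw counts by gene symbol; the values are whole numbers, with no sign of normalization by the authors. Per the labels' protocols, Trizol was used for extraction and the QuantSeq 3′ kit for the libraries. The build mm10 and the tools Bowtie2 and edgeR are named in the submitters' processing notes. The sources used here do not give versions, the counting program, the annotation or the strand setting.

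Rows kept by filterByExpr (12831) were scaled by TMM and tested in R 4.3.3 by edgeR 4.0.16 (estimateDisp, glmQLFit with robust, then glmQLFTest), with genotype as the term tested and p-values adjusted by Benjamini-Hochberg (threshold 0.05). Standard errors are the log2 fold change over the root of F. Ratios were tested by exact permutation (SciPy 1.17.1). The procedure was also run on simulated counts. These held no outlying library, so that run does not cover a case such as WT replicate 2. Alternatives were DESeq2 1.42.0, limma-voom (limma 3.58.1), other scalings and filters, a fit that was not robust, a replicate block, and each library left out. Fits with 2 libraries left out, or without Rn45s, Lrrc17 and Akap5, were chosen after seeing the data.

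The members and lists were chosen with earlier results of these data known. Named are all members, in each pathway list the genes past the test or the 2 of smallest p, and the 3 nearest profiles of Gria1 and Gria2. Cacng7, the markers and the genes in the closing part were chosen after their values were seen. Floors from counts cover counting error only. Intervals of log2 fold changes come from the edgeR fit, so they include the spread between libraries. Transcript ends come from GENCODE M21 (GRCm38, the build called mm10).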

Additional observations from a re-analysis of the deposited data

How the results depend on the processing

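The number of AMPA receptor genes past the test was 0 by edgeR, with 1 at an unadjusted p under 0.05, and 0 by DESeq2 and limma-voom. It was 1 with library size alone (Gria2, log2 fold change 0.31), 1 without WT replicate 2 (Cacng2, −0.43; 0 to 1 over the libraries left out in turn) and 1 when PHF2 t/g replicate 1 was left out with it (Cacng2, −0.39). Of 128 member values under an alternative, 119 kept direction and side of the threshold. The sign turned for Gria4 without WT replicate 2 (−0.10) and without both libraries (−0.059), for Cnih2 without PHF2 t/g replicate 2 (−0.037) or WT replicate 3 (−0.018), and for Cacng3 with library size alone (0.055) and without PHF2 t/g replicate 2 (0.035). The cause was not tested. Left-out libraries gave log2 fold changes of 0.05 to 0.27 for Gria1, 0.18 to 0.25 for Gria2, 0.027 to 0.14 for Gria3, −0.10 to 0.10 for Gria4, −0.037 to 0.15 for Cnih2, −0.43 to −0.16 for Cacng2 and −0.12 to 0.035 for Cacng3. The count over all genes, 291, was 162 by limma-voom, 606 with no low-count filter, 149 without the robust fit, 547 at an adjusted p under 0.10, 140 without both libraries and 49 to 392 with 1 library left out, 49, 106 and 116 without PHF2 t/g replicate 1, 2 or 3.

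Replicate numbers are shared between the groups, and whether they pair the samples was not settled. Deviations from the group means correlated at −0.0044, 0.12 and 0.085 for libraries numbered 1, 2 and 3. Libraries numbered 2 and 3 correlated best with their own number, and those numbered 1 did not. With the replicate number as a block 299 genes and 0 members passed. The block lowered the SE of Gria1 from 0.12 to 0.075, and also lowered those of Cnih2, Cnih3 and Cacng2. Those of Gria2, Gria3, Gria4 and Cacng3 were slightly higher with the block. With 1 library left out, the Gria2 share difference of 0.842 percentage points ran between 0.239 (without WT replicate 2) and 1.82 (without WT replicate 3). Depth limits Gria4, Cnih3 and Cacng3, at 168 to 473 counts per library, and leaves Cacng8 unmeasured.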

Other observations

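Prrt2 and Cspg5, from the lists used above and chosen here after their values were seen, were also lowest in WT replicate 2. Prrt2, which encodes a presynaptic and AMPA receptor-associated protein, was at 752, 788 and 822 CPM in PHF2 t/g and at 909, 435 and 833 CPM in WT. Cspg5, a proteoglycan gene of oligodendrocyte precursors and neurons, was at 252, 234 and 313 CPM in PHF2 t/g and at 329, 122 and 293 CPM in WT. For each of them WT replicates 1 and 3 were at or above most PHF2 t/g libraries.

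Fibcd1, a CA1 marker, was at 16.5, 21.2 and 7.88 CPM in PHF2 t/g and at 40.9, 29.0 and 13.8 CPM in WT. Its lowest library in each group was replicate 3, as for Gria1 and Cnih2. Its part in the spread of Gria1 within the groups was not tested.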
